A study of Mus musculus with 2 samples.

Results

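Low-C1q monocytes of the mouse small intestine are described here from single-cell transcriptomes of sorted lamina propria immune cells. They numbered 96 of 25120 kept cells, 48 in each of 2 libraries. A cell was counted among them when it held at least 5 UMIs of Lyz2, at least 1 UMI of Ccr2, Fn1, Vcan or F13a1, and at least 1 UMI of Ly6c2, Chil3 or Plac8. It also had to hold fewer than 10 UMIs of C1qa, C1qb and C1qc together, none of Xcr1, Clec9a, Flt3, Cd3d, Cd3e or Cd3g, and under 15% of its UMIs on immunoglobulin constant genes and Jchain. A UMI, or unique molecular identifier, stands for 1 captured RNA molecule. Because transcripts chose the cells, the levels of these genes and every contrast with other cells are descriptions and were not tested.

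The CD4-Cre library came from CD4-Cre; Aster-A F/F mice and the F/F library from Aster-A F/F littermates. Both therefore carried floxed alleles of Gramd1a, the gene of Aster-A, which moves cholesterol from the plasma membrane to the endoplasmic reticulum. The CD4-Cre transgene deletes floxed DNA in developing αβ T cells, a lineage that does not give rise to monocytes. All mice were females of 10 to 12 weeks that had been without food for 16 h and had received olive oil by gavage 2 h before tissue was taken. Live CD45+ cells without EPCAM, Ter119 or CD31 were sorted, 100000 per mouse, and 3 mice per genotype were combined before capture on the 10x Genomics 3′ platform. With 1 pool per genotype there is no replicate, so no difference between the libraries was tested. Values in parentheses are exact 95% intervals that cover counting error only. Since many UMIs of a gene may come from 1 cell, these intervals are too narrow.

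Classical monocytes are made in the bone marrow, leave it through the chemokine receptor CCR2 and enter tissues from the blood. In the intestine they arrive with high Ly6C and little MHC class II, then gain MHC class II, lose Ly6C and take on macrophage genes such as those of the complement component C1q. Resident macrophages of the lamina propria depend on this supply, and arriving monocytes make more inflammatory mediators than mature macrophages do.

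The CD4-Cre library held 200580083 UMIs and 12526 kept cells, and the F/F library 222838658 UMIs and 12594 kept cells. Plasma cells made up 49.7% of kept cells in CD4-Cre and 57.9% in F/F, and free RNA was read from barcodes with 10 to 100 UMIs. The libraries shared 47 cell barcodes among kept cells. Monocytes had a median of 6486 UMIs in CD4-Cre (1132 to 12384) and 6299 UMIs in F/F (1875 to 10856), with a median of 2066 genes in CD4-Cre and 2045 genes in F/F. Mitochondrial genes took a median of 2.49% of UMIs in CD4-Cre and 1.79% in F/F. Their UMIs came to 297735 in CD4-Cre and 285400 in F/F, and levels below are these sums scaled to counts per 1e+06 UMIs (CPM).

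Gramd1a (ENSMUSG00000001248; chromosome 7, 31130127 to 31155896, minus strand, GRCm38), the floxed gene, had 11 UMIs in 8 monocytes of each library, 36.9 CPM in CD4-Cre and 38.5 CPM in F/F, a ratio of 0.959 (0.377 to 2.44). Its share of cells was 16.7% (7.48 to 30.2) in CD4-Cre and 16.7% (7.48 to 30.2) in F/F, and plasma cells stood at 14.5% (13.6 to 15.4) and 14.7% (13.9 to 15.5). Thinned to 1500 UMIs, the shares were 2.13% (0.0539 to 11.3) in CD4-Cre and 4.17% (0.509 to 14.3) in F/F monocytes, against 1.16% (0.425 to 2.50) and 1.54% (0.665 to 3.0) in plasma cells. Free RNA held 48.5 CPM in CD4-Cre and 64.8 CPM in F/F. These levels give the make-up of free RNA and not the amount it added to a cell. Whether Gramd1a in monocytes lay above that background was therefore not tested. The floxed exons are not named in the sources used here. Since 3′ tags outside them check nothing, these counts do not test the deletion. Gramd1b, which encodes Aster-B, had 1 UMI in CD4-Cre and 10 UMIs in F/F, and Gramd1c none.

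Monocytes made up 0.383% of kept cells in CD4-Cre (0.283 to 0.508) and 0.381% in F/F (0.281 to 0.505), a ratio of 1.01 (0.660 to 1.53). Macrophages, cells of the same rule with 10 or more C1q UMIs and no demand for monocyte genes, numbered 183 in CD4-Cre and 295 in F/F. Among monocytes and macrophages together, monocytes were 20.8% in CD4-Cre (15.7 to 26.6) and 14.0% in F/F (10.5 to 18.1), a ratio of 1.48 (0.974 to 2.26). The counts of monocytes were equal, and it is the macrophage count that was lower in CD4-Cre. Counting error alone leaves a ratio of 1 inside both intervals, and variation between mice adds to it. With C1q limited to fewer than 3 UMIs, 32 CD4-Cre and 42 F/F monocytes remained and the ratios were 0.766 and 1.19.

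The marker Lyz2, lysozyme (ENSMUSG00000069516; chromosome 10, 117277331 to 117282321, minus strand, GRCm38), was abundant, at 16636 CPM in CD4-Cre monocytes and 14131 CPM in F/F monocytes. Per cell it ranged over 5, 91.5 and 312 UMIs (lowest, median, highest) in CD4-Cre and over 5, 55 and 314 UMIs in F/F, so its spread across cells was wide and the libraries overlapped. Chil3, a chitinase-like secreted protein of monocytes and neutrophils (ENSMUSG00000040809; chromosome 3, 106147554 to 106167564, minus strand), stood at 2962 CPM in CD4-Cre monocytes and 1310.4 CPM in F/F monocytes. It was present in 25 CD4-Cre and 15 F/F cells. Plac8, a small cysteine-rich protein of monocytes and other leukocytes, stood at 2489 CPM in CD4-Cre monocytes and 1997 CPM in F/F monocytes and was found in 46 CD4-Cre and 45 F/F cells. Ccr2, the receptor for bone marrow exit, reached 816 CPM in CD4-Cre monocytes and 764 CPM in F/F monocytes and was found in 44 CD4-Cre and 46 F/F cells. Ly6c2, which encodes the surface protein Ly6C (ENSMUSG00000022584; chromosome 15, 75108158 to 75111970, minus strand), reached 299 CPM in CD4-Cre monocytes and 361 CPM in F/F monocytes, in 21 CD4-Cre and 27 F/F cells. Its neighbour Ly6c1 had no UMI in either library, where a count of 0 allows up to 10.1 CPM in CD4-Cre and 10.5 CPM in F/F.

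Markers were set beside plasma cells, macrophages and free RNA. Plasma cells had Chil3 in 0.305% (0.184 to 0.476) of cells in CD4-Cre and 0.0822% (0.0302 to 0.179) in F/F, at median depths of 17059 and 17006 UMIs per cell. Free RNA held 2.69 CPM of Chil3 in CD4-Cre and 0.736 CPM in F/F. Ly6c2 did not set monocytes apart from plasma cells. These held 354 CPM of it in CD4-Cre and 328 CPM in F/F, above the 165 and 156 CPM of free RNA. When every cell was thinned to 1500 UMIs, which left out 1 CD4-Cre monocyte, Ly6c2 was found in 25.5% (13.9 to 40.3) of CD4-Cre and 27.1% (15.3 to 41.8) of F/F monocytes. Plasma cells stood at 29.7% (25.8 to 33.8) in CD4-Cre and 26.1% (22.4 to 30.1) in F/F at that depth, and before thinning at 73.7% and 74.4%, against 43.8% (29.5 to 58.8) and 56.2% (41.2 to 70.5) of CD4-Cre and F/F monocytes. Macrophages, with median depths of 5446 and 5517 UMIs, stood at 6.59% (3.45 to 11.2) in CD4-Cre and 0.341% (0.00864 to 1.89) in F/F after thinning, below the monocytes. Thinned shares of Chil3 were 46.8% (32.1 to 61.9) in CD4-Cre and 29.2% (17.0 to 44.1) in F/F monocytes, against 0 of 519 CD4-Cre and 0 of 521 F/F plasma cells, with upper bounds of 0.708% and 0.706%. For Ccr2 they were 68.1% (52.9 to 80.9) and 66.7% (51.6 to 79.6) in monocytes, also with none among those plasma cells. Ly6c2, Chil3 and Ccr2 took part in the rule, so higher shares in monocytes were favoured by the choice of cells.

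The name monocyte did not hold equally for all 96 cells. In 16 CD4-Cre and 19 F/F cells Plac8 was the sole gene that met the demand for Ly6c2, Chil3 or Plac8, and conventional type 2 dendritic cells (cDC2, chosen here by Flt3 with Cd209a, Clec10a or Mgl2) also held Plac8, at 1776 CPM in CD4-Cre and 1366 CPM in F/F. These Plac8-only cells are called by that gene here. They carried H2-Aa, an MHC class II chain, at 11595 CPM in CD4-Cre and 8437 CPM in F/F, against 1723 and 4434 CPM in the CD4-Cre and F/F cells with Ly6c2 or Chil3. Clec10a, a lectin of cDC2 and of some macrophages, stood at 309 and 224 CPM in CD4-Cre and F/F Plac8-only cells, against 29.0 and 82.8 CPM in the others. All 43 CD4-Cre UMIs of Cd209a, another lectin of these dendritic cells, lay in 5 Plac8-only cells. Vcan, a matrix proteoglycan of classical monocytes, had 0 UMIs in CD4-Cre Plac8-only cells and 1 UMI in those of F/F. Lyz2 was still high in them, at 12865 CPM in CD4-Cre and 7233 CPM in F/F.

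Of the 8 macrophage markers, Apoe was present in most monocytes, in 45 CD4-Cre and 43 F/F cells. The 8 markers reached 3 UMIs together in 46 CD4-Cre and 42 F/F cells, at a summed 9613 CPM in CD4-Cre and 7744 CPM in F/F. Apoe made up most of that sum. Mertk was seen in 6 CD4-Cre and 4 F/F cells, Adgre1 in 31 and 19, and Fcgr1 in 20 and 20. C1qa, C1qb and C1qc were limited by the rule. Of 5 cDC1 markers, which include Irf8, at least 1 UMI was seen in 32 CD4-Cre and 27 F/F cells and at least 3 UMIs in 9 and 7, and Xcr1 and Clec9a were at 0 by the rule. Of 6 cDC2 markers, 4 were seen in each library, and at least 3 of their UMIs were found in 9 CD4-Cre and 8 F/F monocytes, with a summed level of 484 and 284 CPM. The cDC2 transcription factor Zbtb46 had no UMI, and Flt3 none by the rule. Neutrophil markers reached 3 UMIs in 2 CD4-Cre and 0 F/F cells, and Retnlg and Cxcr2 had none. S100a8, an abundant neutrophil alarmin, had 8 UMIs in 1 CD4-Cre cell and none in F/F. All 5 mast cell and all 3 erythroid markers were at 0. The 5 plasma cell markers together reached at least 3 UMIs in every monocyte, at a summed 2778 CPM in CD4-Cre and 2593 CPM in F/F, where free RNA held 24518 and 22631 CPM.

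**Figure D1:**
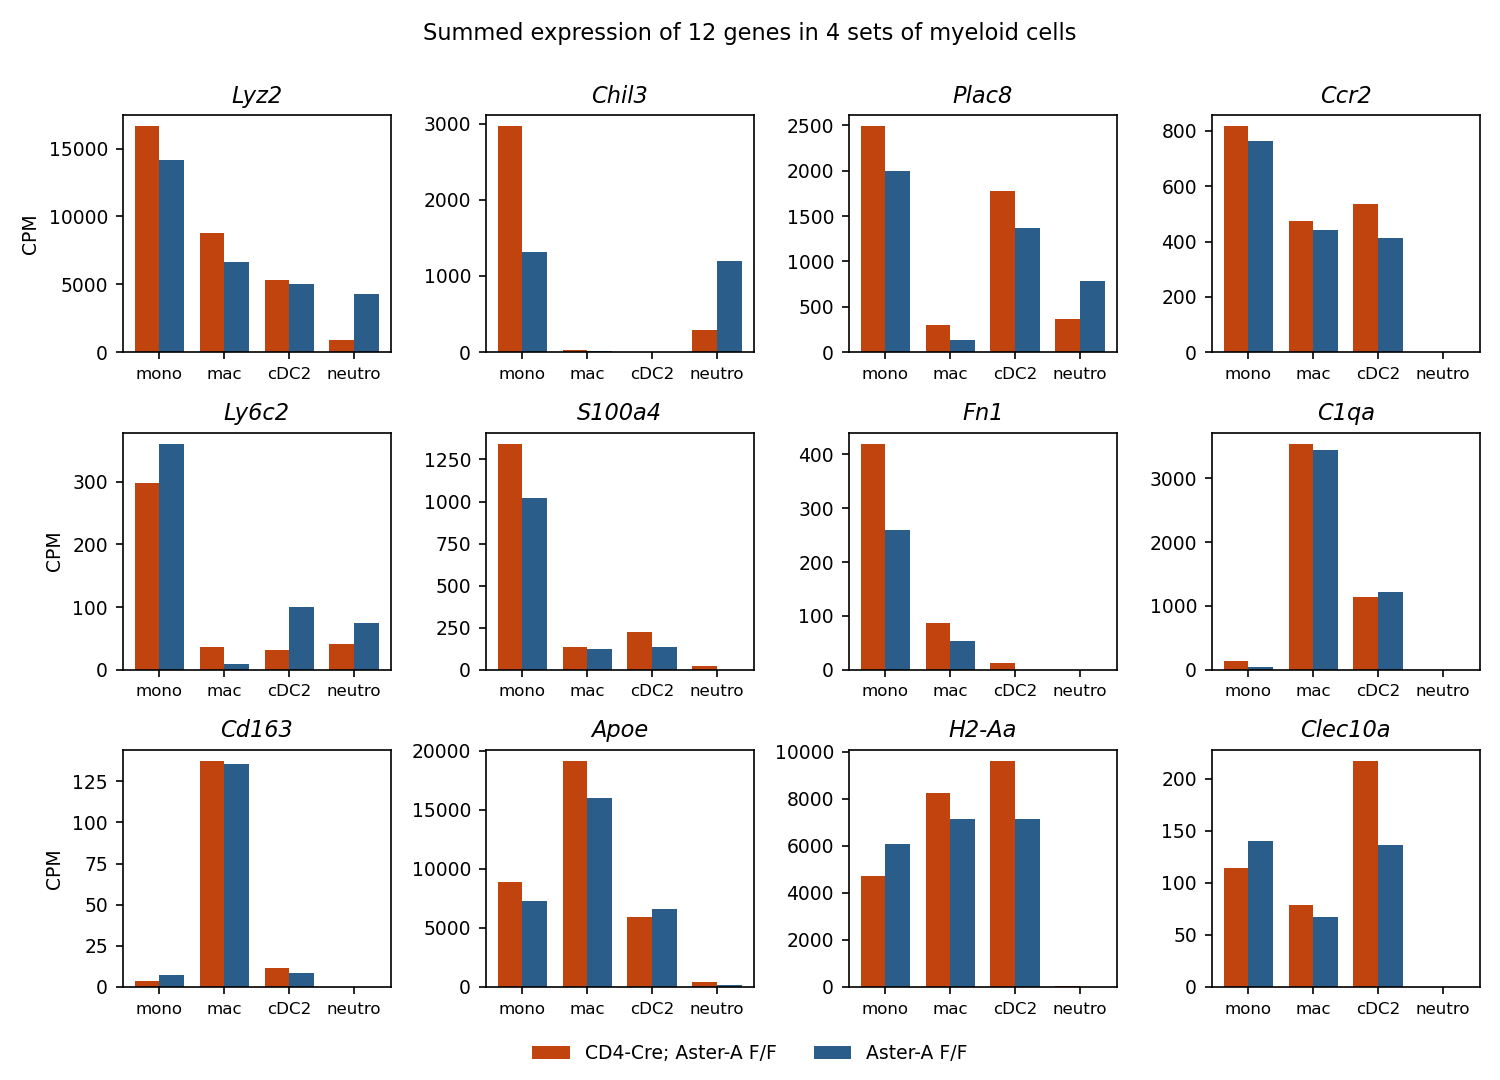
Bars give the summed level (CPM) of 12 genes in monocytes (mono), macrophages (mac), cDC2 and neutrophils (neutro), with CD4-Cre left of F/F and 1 pool behind each bar. There were 34 CD4-Cre and 45 F/F cDC2, and 22 CD4-Cre and 10 F/F neutrophils. Lyz2, Ccr2, Ly6c2, S100a4 and Fn1 are highest in the monocytes of both libraries, C1qa, Cd163 and Apoe in the macrophages, and Chil3 is near 0 in macrophages and cDC2.

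Beside macrophages, the monocytes were marked by genes of calcium-binding S100 proteins. Of 2220 genes compared, 38 (1.71%) were at least 2-fold higher than in macrophages in both libraries and 157 (7.07%) at least 2-fold lower. S100a4, a calcium-binding protein of motile leukocytes, stood at 1343 CPM in CD4-Cre monocytes and 1023 CPM in F/F monocytes, against 132 CPM in CD4-Cre and 120.5 CPM in F/F macrophages. S100a6 gave 1286 CPM in CD4-Cre and 1107 CPM in F/F monocytes, against 192 and 213 CPM in the macrophages of these libraries. Of 11 measured S100 and alarmin genes, 8 passed 2-fold over macrophages in both libraries. Summed, these lists gave 10194 CPM in CD4-Cre and 8945 CPM in F/F monocytes, and 2612 and 2668 CPM in macrophages. In cDC2 the sum was 5216 CPM in CD4-Cre and 4368 CPM in F/F, so these genes did not mark monocytes alone. Plcb1, a phospholipase C, was at 511 CPM in CD4-Cre monocytes and 427 CPM in F/F monocytes, against 44.8 and 6.66 CPM in CD4-Cre and F/F macrophages. Napsa, an aspartic protease, was at 383 CPM in CD4-Cre monocytes and 382 CPM in F/F monocytes, against 63.5 and 31.6 CPM, and cDC2 held still more of it, 557 CPM in CD4-Cre and 481 CPM in F/F. Msrb1, a methionine sulfoxide reductase, was at 497 CPM in CD4-Cre monocytes and 350.4 CPM in F/F monocytes, against 96.1 and 63.3 CPM in macrophages.

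The same rule named Lsp1, an actin-binding protein of leukocytes, Anxa2, a membrane-binding annexin, Thbs1, the matrix protein thrombospondin, and Alox5ap, which activates 5-lipoxygenase in leukotriene synthesis. It also named S100a11, Emilin2 and Ifitm3, the last an inhibitor of virus entry, at 2680.2 CPM in CD4-Cre monocytes and 3076 CPM in F/F monocytes, against 741 and 738 CPM in CD4-Cre and F/F macrophages. All 12 were at least 2-fold above macrophages in both libraries, as the ranking required. Some were as frequent in cDC2. Lsp1 was found in 66.7% of CD4-Cre and 77.1% of F/F monocytes, and in 79.4% and 75.6% of cDC2. Alox5ap was found in 81.25% of CD4-Cre and 70.8% of F/F monocytes, and in 79.4% and 71.1% of cDC2. Neutrophils held more Msrb1 and S100a11 than monocytes did, with 1994 and 1277 CPM of Msrb1 in CD4-Cre and F/F neutrophils. These were few and shallow, 22 cells in CD4-Cre and 10 in F/F, with median depths of 2066 and 2362 UMIs.

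The genes ranked furthest below macrophages were low or missing in the monocytes, as the ranking required. Cd163, a scavenger receptor for haptoglobin-haemoglobin complexes, had 1 UMI in CD4-Cre and 2 UMIs in F/F monocytes, against 137 CPM in CD4-Cre and 135 CPM in F/F macrophages. The transcription factor gene St18 had 4 and 3 UMIs in CD4-Cre and F/F monocytes, with 384 and 296 CPM in macrophages. Mmp9, a gelatinase, had 0 UMIs in CD4-Cre and 1 UMI in F/F monocytes, against 180.1 and 185 CPM in macrophages. Cxcl9, an interferon-γ-induced chemokine, had 6 and 3 UMIs in monocytes, against 253 CPM in CD4-Cre and 126 CPM in F/F macrophages. The other genes named by rank on this side were Dip2c, Tanc2, Dst, Lilra5, Cd63, Adam22, Psd3 and Agmo, each with 5 or fewer UMIs in each library's monocytes. Of 17 measured genes of macrophage differentiation, 12 were at least 2-fold lower than in macrophages in both libraries. Apoe, the apolipoprotein that carries cholesterol out of macrophages, was lower too but abundant, at 8917 CPM in CD4-Cre monocytes and 7242 CPM in F/F monocytes, against 19127 CPM in CD4-Cre and 16010.3 CPM in F/F macrophages. The macrophage marker Fcgr1 was nearly as frequent in monocytes, in 41.7% of cells of each library, against 45.9% of CD4-Cre and 46.8% of F/F macrophages. Adgre1 was found in 64.6% and 39.6% of CD4-Cre and F/F monocytes, against 85.8% and 88.1% of macrophages.

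Values just inside and outside the limits of the rule show where its edges fell. With 6 to 9 C1q UMIs there were 4 CD4-Cre and 4 F/F monocytes, and with 10 to 13 there were 4 and 1 cells that met every other demand. The inner cells had 894 CPM of Plac8 in CD4-Cre and 2331 CPM in F/F, and the outer cells 643 and 1133 CPM. For Ly6c2 the inner cells had 112 CPM in CD4-Cre and 748 CPM in F/F, and the outer cells 544 and 453 CPM. In all, 49 CD4-Cre and 45 F/F cells met the demand for monocyte genes with 10 or more C1q UMIs, close to the number of monocytes. Their Chil3 was 73.8 CPM in CD4-Cre and 46.5 CPM in F/F. No C1q UMI was found in 27 CD4-Cre and 35 F/F monocytes. With 5 to 8 Lyz2 UMIs there were 6 CD4-Cre and 5 F/F monocytes, and with 1 to 4 there were 9 and 5 cells outside.

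The 96 monocytes covered a wide range of MHC class II. The 4 transcripts H2-Aa, H2-Ab1, H2-Eb1 and Cd74, which encode MHC class II chains and their invariant chain, took between 0% and 7.59% of the UMIs of a CD4-Cre cell (median 1.72%) and between 0% and 9.14% in F/F (median 2.82%). Free RNA stood at 0.229% in CD4-Cre and 0.197% in F/F. Cells were split at 0.917% and 3.88% into 3 bins of equal size over both libraries, and this split was set after values had been seen. The low bin held 18 CD4-Cre and 14 F/F cells, the middle bin 17 and 15, and the high bin 13 and 19. The bins are ranges of a continuous measure, and 6 cells in CD4-Cre and 7 in F/F lay within 10% of a cut.

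**Figure D2:**
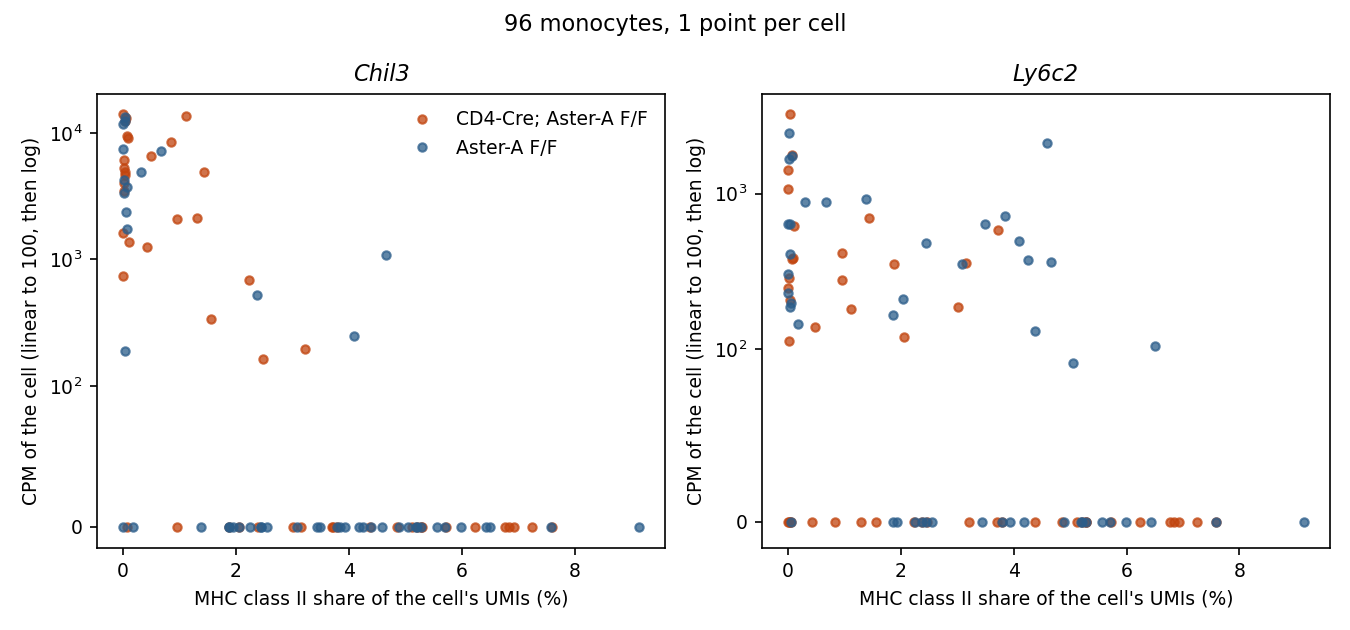
Each point is 1 of 96 monocytes, with the share of its UMIs on 4 MHC class II transcripts (%) across and its Chil3 or Ly6c2 level up (CPM of the cell, linear to 100 and logarithmic above). In both libraries most Chil3 lies in the low bin, and in the high bin Ly6c2 is at 0 in CD4-Cre and present in 7 of 19 F/F cells.

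Genes known from newly arrived monocytes were concentrated in the low bin of both libraries. Chil3 gave 5685 CPM in the low bin, 1724 CPM in the middle bin and 0 CPM in the high bin in CD4-Cre, and 4889 CPM in the low bin, 28.1 CPM in the middle bin and 57.2 CPM in the high bin in F/F. Ly6c2 gave 561 CPM in the low bin, 194 CPM in the middle bin and 0 CPM in the high bin in CD4-Cre. In F/F it gave 779 CPM in the low bin, 239 CPM in the middle bin and 200.3 CPM in the high bin. The low bin stood above the level of plasma cells and the other bins below it. The 13 CD4-Cre cells of the high bin held no Ly6c2 in 85188 UMIs. Vcan stood at 238 CPM in the low bin and 0 CPM in the high bin of CD4-Cre, and at 470.1 and 7.16 CPM in those of F/F. Fn1, fibronectin, stood at 699 CPM in the low and 47.0 CPM in the high bin of CD4-Cre, against 591 and 42.9 CPM in F/F. These genes took part in the rule, and each was highest in the low bin of both libraries.

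Some genes outside the rule also differed between the bins. Of 845 genes with at least 30 UMIs over the low and high bins of each library, 33 were at least 2-fold higher in the low bin and 14 in the high bin in both libraries. Hp, the haemoglobin scavenger haptoglobin, led the first group, with 630.0 CPM in the low bin, 134 CPM in the middle bin and 11.7 CPM in the high bin of CD4-Cre and 484 CPM in the low bin, 70.2 CPM in the middle bin and 42.9 CPM in the high bin of F/F. Plcb1 gave 1037 CPM in the low bin, 206 CPM in the middle bin and 0 CPM in the high bin of CD4-Cre, and 1222 CPM in the low bin, 169 CPM in the middle bin and 136 CPM in the high bin of F/F. S100a4 gave 2643 CPM in the low bin, 522 CPM in the middle bin and 153 CPM in the high bin of CD4-Cre, and 2512 CPM in the low bin, 702 CPM in the middle bin and 394 CPM in the high bin of F/F. All S100 and alarmin genes together gave 16348, 4649 and 6151 CPM in the low, middle and high bins of CD4-Cre. In F/F they gave 15648, 5928 and 6912 CPM. S100a6, S100a11, Anxa2, Msrb1, Cxcl2, Diaph1, Gsr, Lrrfip1 and Aprt completed the 12 leading genes. Cxcl2, a chemokine that draws neutrophils, stood at 1122 CPM in the low bin, 607 CPM in the middle bin and 247 CPM in the high bin of CD4-Cre, and at 658 CPM in the low bin, 84.3 CPM in the middle bin and 179 CPM in the high bin of F/F. Its F/F middle bin was the lowest, so the order was not the same in both libraries.

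H2-DMb1 led the genes higher in the high bin. It encodes a subunit of the peptide-loading factor H2-DM and gave 76.8 CPM in the low bin, 437 CPM in the middle bin and 986 CPM in the high bin of CD4-Cre, and 53.7 CPM in the low bin, 519.8 CPM in the middle bin and 1023 CPM in the high bin of F/F. Its partner H2-DMa gave 269 CPM in the low bin, 425 CPM in the middle bin and 1197 CPM in the high bin of CD4-Cre, and 295 CPM in the low bin, 604 CPM in the middle bin and 1016 CPM in the high bin of F/F. These genes share their regulator with the 4 used for the split, so their order is not independent of it. Clec10a gave 23.0 CPM in the low bin, 36.4 CPM in the middle bin and 329 CPM in the high bin of CD4-Cre, and 40.3 CPM in the low bin, 70.2 CPM in the middle bin and 229 CPM in the high bin of F/F. Tmem176a and Tmem176b, membrane proteins of antigen-presenting cells, Cd83, a surface protein of activated antigen-presenting cells, and Adgrl3, Trerf1, AW112010 and Rgs1 were also among the 12 leading genes on this side. For Adgrl3 and Rgs1 the F/F middle bin was higher than the F/F high bin.

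Not every gene followed MHC class II. Ccr2 gave 538 CPM in the low bin, 886 CPM in the middle bin and 1174 CPM in the high bin of CD4-Cre, but 766 CPM in the low bin, 815 CPM in the middle bin and 737 CPM in the high bin of F/F. Lyz2 was highest in the low bin, at 22739.8 CPM in CD4-Cre and 20913 CPM in F/F, and was at 13394 and 12550 CPM in the high bin. Apoe was abundant in all bins, with 9296 CPM in the low bin, 9347 CPM in the middle bin and 7924 CPM in the high bin of CD4-Cre, and 7226 CPM in the low bin, 3245 CPM in the middle bin and 9287 CPM in the high bin of F/F. The low value of the F/F middle bin has no counterpart in CD4-Cre. Cd209a, a marker of cDC2, was at 0 in the low bins and at 505 CPM in CD4-Cre and 85.9 CPM in F/F in the high bins.

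**Figure D3:**
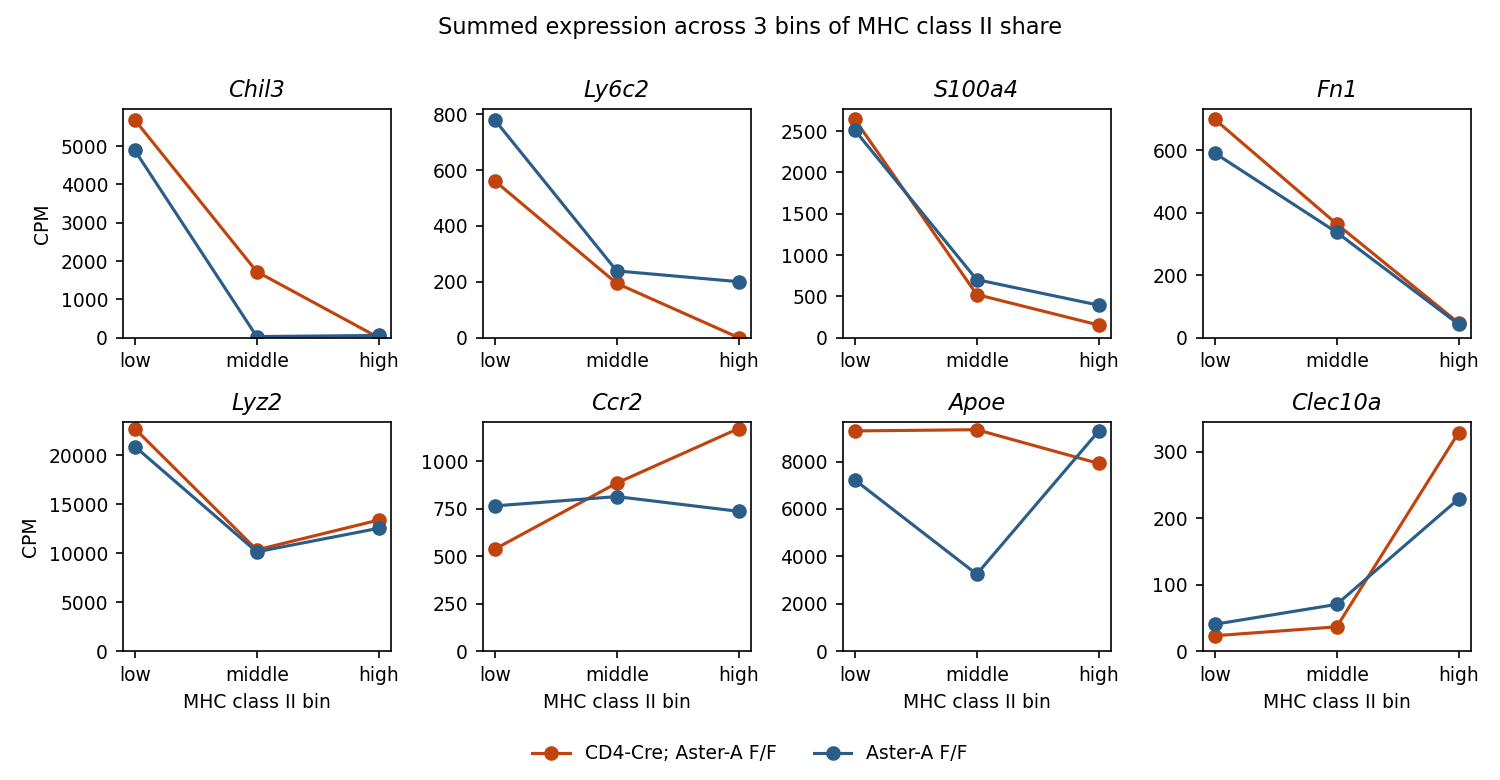
Lines give the summed level (CPM) of 8 genes in monocytes of the low, middle and high bin of MHC class II share, for CD4-Cre and F/F, with 13 to 19 cells behind each point. Chil3, Ly6c2, S100a4 and Fn1 are lower in the high than in the low bin of both libraries and Clec10a is higher, while Ccr2 and Apoe differ between the libraries in their order.

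Monocytes of the 2 libraries were compared over all genes with at least 50 UMIs. Of 1735 such genes, 41 (2.36%) were at least 2-fold higher and 14 (0.807%) at least 2-fold lower in CD4-Cre than in F/F monocytes. At 1.5-fold, 177 (10.2%) were higher and 99 (5.71%) lower. The median log2 ratio over these genes was 0.045. With cells that passed by Plac8 alone left out, a choice made after seeing the data, 24 genes were at least 2-fold higher and 25 lower. Genes with at least 100 UMIs were named by the distance of their interval from a ratio of 1, 45 passing on the higher and 29 on the lower side, and genes among the first 12 of each are described.

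Cxcl2 and Chil3 led the higher side. Cxcl2 (ENSMUSG00000058427; chromosome 5, 90903871 to 90905938, plus strand) stood at 729 CPM in CD4-Cre monocytes and 280.3 CPM in F/F monocytes, 2.60 (2.0 to 3.40) as a ratio. It occurred in 29 CD4-Cre and 16 F/F cells, and with the 5 top cells of either library left out its ratio moved to 5.02. Within the low, middle and high bins of MHC class II the ratio was 1.70 (1.23 to 2.41), 7.2 (3.09 to 20.6) and 1.38 (0.734 to 2.56). Macrophages had a Cxcl2 ratio of 1.46 (1.35 to 1.59), at higher levels of 1021 CPM in CD4-Cre and 699 CPM in F/F. Chil3 had a ratio of 2.26 (2.0 to 2.56), and was one of the genes that chose the cells. Its ratio was 1.16 (1.02 to 1.32) in the low bin, where most of it lies, and 61.4 (16.7 to 512) in the middle bin, from 142 CD4-Cre and 2 F/F UMIs. Leaving out the 5 highest cells moved its ratio to 4.23.

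Ier3, an early response gene that limits cell death, was at 440.0 CPM in CD4-Cre monocytes and 189 CPM in F/F monocytes, a ratio of 2.33 (1.68 to 3.25). Cd86, which costimulates T cells through CD28, was at 732 CPM in CD4-Cre monocytes and 347 CPM in F/F monocytes, a ratio of 2.11 (1.66 to 2.70), and lay above 1.6 in each of the 3 bins. The share of cells with a Cd86 UMI was 83.3% (69.8 to 92.5) in CD4-Cre and 75% (60.4 to 86.4) in F/F at full depth, with overlapping intervals. In 1 draw of 1500 UMIs per cell it was 66.0% (50.7 to 79.1) in CD4-Cre and 25% (13.6 to 39.6) in F/F. Macrophages had a Cd86 ratio of 1.26 (1.15 to 1.39). Smpdl3a, a secreted phosphodiesterase, was at 373 CPM in CD4-Cre monocytes and 158 CPM in F/F monocytes, a ratio of 2.36 (1.66 to 3.42). Thbs1 was at 409.8 CPM in CD4-Cre monocytes and 186 CPM in F/F monocytes, a ratio of 2.21 (1.59 to 3.11), and 1 CD4-Cre cell held 46 of its 122 UMIs there. Its ratio was 2.98 (1.81 to 5.16) in the low bin and 0.591 (0.268 to 1.26) in the middle bin. The CD4-Cre cell with 46 UMIs lay in the low bin, which held 99 CD4-Cre UMIs of Thbs1. The low-bin ratio therefore rests largely on 1 cell, and whether it holds without that cell was not tested.

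Other genes named on this side included Vim and S100a10. Vim, the intermediate filament vimentin, was at 1309.9 CPM in CD4-Cre monocytes and 683 CPM in F/F monocytes, a ratio of 1.92 (1.61 to 2.29), and 1 CD4-Cre cell held 68 of its 390 UMIs. S100a10, a partner of annexin A2, was at 598 CPM in CD4-Cre monocytes and 343 CPM in F/F monocytes, a ratio of 1.74 (1.35 to 2.25), although fewer CD4-Cre cells, 25, than F/F cells, 31, held it. Ptpn1, a tyrosine phosphatase, had a ratio of 2.04 (1.43 to 2.95) and Mapkapk2, a kinase below p38, one of 1.82 (1.33 to 2.52). Hp had a ratio of 1.92 (1.34 to 2.78), and of 1.30 (0.870 to 1.99), 1.90 (0.609 to 6.98) and 0.273 (0.00594 to 2.25) in the low, middle and high bins. In the low, middle and high bins the ratio of S100a10 was 1.79 (1.27 to 2.57), 0.617 (0.245 to 1.49) and 1.14 (0.669 to 1.90), and that of Vim 1.94 (1.51 to 2.51), 1.30 (0.864 to 1.96) and 1.13 (0.770 to 1.65). In macrophages the ratios of Vim, S100a10, Mapkapk2 and Smpdl3a were 0.98 (0.880 to 1.09), 0.935 (0.751 to 1.16), 0.991 (0.843 to 1.16) and 1.05 (0.807 to 1.36). Whether the ratios of the 2 cell sets differ beyond variation between mice could not be tested.

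On the lower side stood members of the MHC class II, interferon and immediate early lists. Cd74, the MHC class II invariant chain, was at 10590 CPM in CD4-Cre monocytes and 14457 CPM in F/F monocytes, a ratio of 0.733 (0.699 to 0.767). H2-Ab1 had a ratio of 0.722 (0.672 to 0.775) and H2-Eb1 one of 0.744 (0.691 to 0.801). The CD4-Cre library had 13 cells in the high bin and the F/F library 19, and within that bin the ratios of Cd74, H2-Ab1 and H2-Eb1 were 1.10 (1.04 to 1.16), 1.12 (1.03 to 1.22) and 1.20 (1.11 to 1.31). Within the middle bin they were 0.95 (0.860 to 1.05), 0.880 (0.754 to 1.03) and 0.804 (0.680 to 0.949), on the other side of 1. Within the low bin, where these transcripts were few, they were 0.957 (0.678 to 1.36), 1.0 (0.470 to 2.23) and 1.86 (0.574 to 7.83). Without Plac8-only cells the log2 ratios of Cd74, H2-Ab1 and H2-Eb1 were -1.24, -1.5 and -1.58, further from 0. In macrophages the same genes stood on the other side of 1, with Cd74 at 1.15 (1.13 to 1.17).

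Ifi27l2a, an interferon-induced mitochondrial protein, was at 678 CPM in CD4-Cre monocytes and 1216 CPM in F/F monocytes, a ratio of 0.558 (0.467 to 0.666). Its ratio was 1.35 (0.952 to 1.94) in the low bin, 0.444 (0.290 to 0.669) in the middle bin and 0.389 (0.283 to 0.525) in the high bin, and 0.645 (0.569 to 0.728) in macrophages. Nr4a1, an orphan nuclear receptor needed by nonclassical monocytes, was at 154 CPM in CD4-Cre monocytes and 308 CPM in F/F monocytes, a ratio of 0.501 (0.343 to 0.724). In the low, middle and high bins it was 0.2 (0.103 to 0.366), 0.559 (0.237 to 1.27) and 1.17 (0.626 to 2.16). Ier5 and Atf3, both early stress-response genes, had ratios of 0.509 (0.343 to 0.745) and 0.548 (0.369 to 0.803). Zfand5, which binds ubiquitin, had 0.544 (0.408 to 0.721), Pmaip1, the cell-death gene Noxa, 0.536 (0.350 to 0.808), and Lamtor4, of the lysosomal mTORC1 scaffold, 0.558 (0.379 to 0.813). One F/F cell held 15 of the 68 F/F UMIs of Pmaip1, and without the 5 highest cells its ratio was 0.760. Plasma cells before thinning also held such genes less often in CD4-Cre. Shares were 40.2% in CD4-Cre and 51.5% in F/F for Ifi27l2a, 3.28% and 5.08% for Nr4a1, and 3.36% and 5.11% for Atf3. They were 38.5% and 44.6% for Ier5, 48.7% and 53.3% for Zfand5, and 13.1% and 17.4% for Pmaip1. After thinning, Ier5 turned to 7.13% and 5.95%. In macrophages Atf3 was lower, at 56.8% and 70.8%, but Ier5 and Pmaip1 were not. Whether the shift was particular to monocytes was not tested. F13a1, coagulation factor XIII and a gene of the rule, was at 185 CPM in CD4-Cre monocytes and 339.9 CPM in F/F monocytes, a ratio of 0.544 (0.383 to 0.764). Gm42418, with a ratio of 0.704 (0.680 to 0.730), overlaps a ribosomal RNA repeat, so its UMIs may not come from a messenger RNA.

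**Figure D4:**
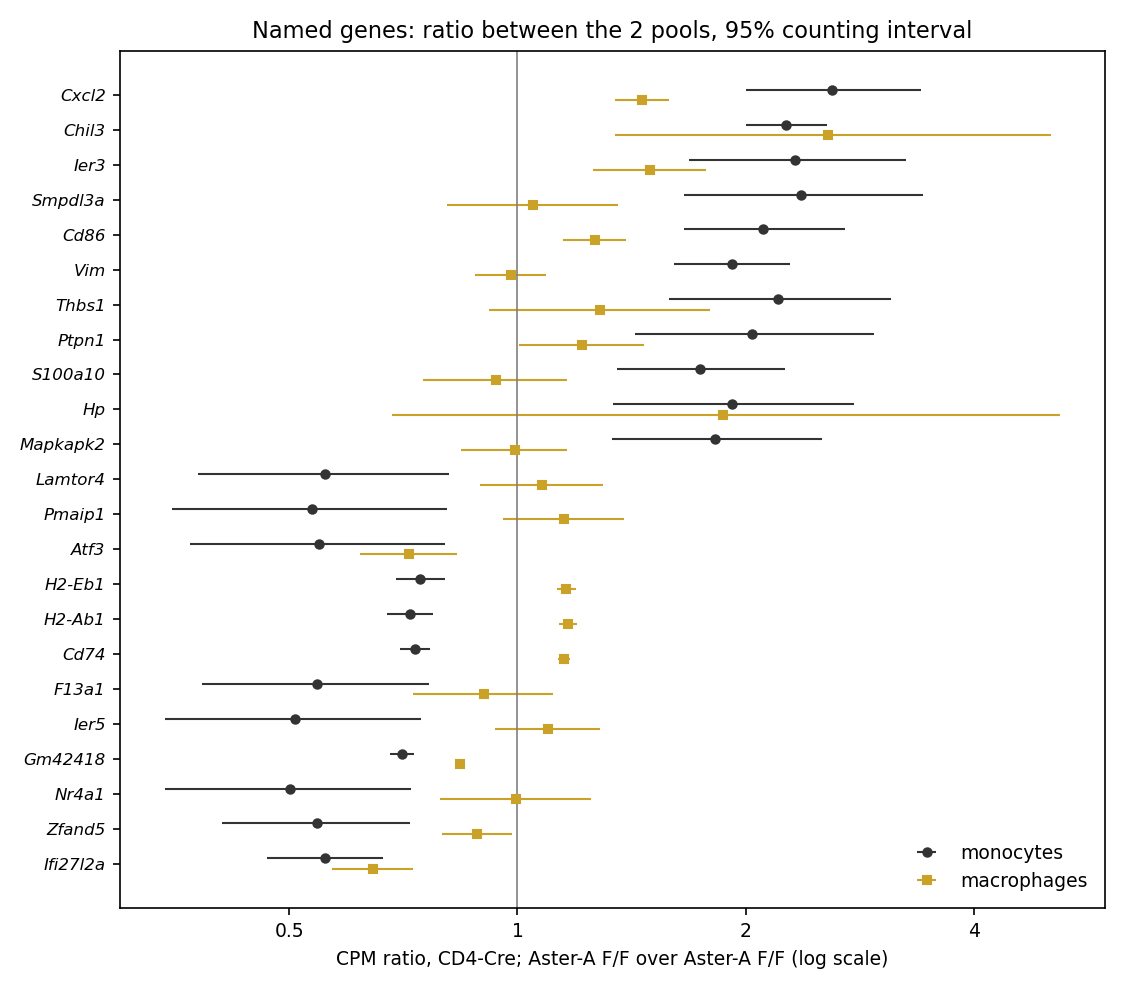
Points give the CPM ratio of CD4-Cre over F/F (logarithmic axis) for the genes described here in monocytes (circles) and macrophages (squares), with 95% counting intervals that leave out variation between mice. Cxcl2, Ier3 and Cd86 lie above 1 in both cell sets, and Cd74, H2-Ab1 and H2-Eb1 lie below 1 in monocytes and above 1 in macrophages.

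Gene lists were read by their measured members, those with at least 20 UMIs. Over all 3916 genes with 20 UMIs, 184 (4.7%) were at least 2-fold higher and 137 (3.5%) at least 2-fold lower in CD4-Cre, with a median log2 ratio of 0.038. Receptors and adhesion molecules of monocytes had a median log2 ratio of 0.32, with 13 of 18 members higher and 3 past 2-fold. Cd14, the lipopolysaccharide co-receptor, was at 185 CPM in CD4-Cre monocytes and 52.6 CPM in F/F monocytes, with 3.51 (1.96 to 6.70) as the ratio. It occurred in 24 CD4-Cre and 12 F/F cells, and its ratio was 7.63 (2.43 to 38.5), 1.51 (0.384 to 7.04) and 1.64 (0.537 to 5.01) in the low, middle and high bins. In 1 draw of 1500 UMIs per cell its share of cells was 14.9% (6.2 to 28.3) in CD4-Cre and 10.4% (3.47 to 22.7) in F/F, with overlapping intervals. Clec4d, a receptor for microbial glycolipids, had a ratio of 2.52 (1.46 to 4.53). Csf1r, the receptor for the macrophage growth factor CSF1, had 1.80 (1.32 to 2.47), and Fcgr3, an activating IgG receptor, 1.65 (1.21 to 2.26). Chemokine receptors and egress genes had a median of -0.32, with 4 of 9 higher, but a mean of 0.059 and a median of 0.40 without Plac8-only cells, so its direction turned. C5ar1, the complement C5a receptor, had 5.11 (lower bound 2.11) from 32 CD4-Cre and 6 F/F UMIs.

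Chemokines had a median of 0.33, with 7 of 10 members higher. Their summed level was 3399 CPM in CD4-Cre and 2397 CPM in F/F, and the ratio of the sums was 1.46 (1.24 to 1.73), 1.48 (1.19 to 1.85) and 1.26 (1.07 to 1.48) in the low, middle and high bins. Ccl6, an abundant myeloid chemokine, had a ratio of 1.29 (1.10 to 1.51) and Cxcl16, a membrane-bound chemokine and scavenger of oxidised lipids, 1.96 (1.17 to 3.38). Il1b, the inflammatory cytokine IL-1β, was at 168 CPM in CD4-Cre monocytes and 77.1 CPM in F/F monocytes, a ratio of 2.18 (1.30 to 3.78), while Tnf, which encodes TNF, had 0.703 (0.386 to 1.26). Tgfb1 had a ratio of 1.48 (1.15 to 1.91). Inflammatory cytokines and enzymes as a list had a median of 0.15, with 5 of 9 members higher, and Nos2 had no UMI in either library. Matrix, coagulation and repair genes had a median of 0.16, with 9 of 10 higher, among them Tgfbi at 1.52 (1.19 to 1.93) and Anxa2 at 1.63 (1.20 to 2.22). By bin, low to high, the ratio of their sum was 1.56 (1.30 to 1.88), 0.813 (0.633 to 1.04) and 1.02 (0.779 to 1.32), and that of Anxa2 was 1.44 (0.991 to 2.12), 0.532 (0.191 to 1.38) and 0.820 (0.304 to 2.03). S100 and alarmin genes had a median of 0.35, with 10 of 12 higher and none past 2-fold. Their summed ratio was 1.04 (0.972 to 1.12), 0.784 (0.681 to 0.903) and 0.890 (0.799 to 0.991) in the low, middle and high bins, below 1 in the middle and high bins. Lgals3, galectin-3, had a ratio of 1.29 (1.10 to 1.52).

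Interferon response genes were mostly lower in CD4-Cre monocytes. Their median log2 ratio was -0.84, 14 of 15 members were lower in CD4-Cre and 5 were at least 2-fold lower. Summed over 24 genes, the list gave 2751 CPM in CD4-Cre and 4169.6 CPM in F/F, while macrophages gave 2139.6 and 1961 CPM. Per cell the sum ranged over 161, 2552 and 9158 CPM (lowest, median, highest) in CD4-Cre and over 418, 3356 and 19581 CPM in F/F, so the cells of the libraries overlapped. The ratio of the sums was 0.904 (0.775 to 1.06) in the low bin, 0.652 (0.533 to 0.795) in the middle bin and 0.508 (0.433 to 0.593) in the high bin. Bst2, the virus tether tetherin, had a ratio of 0.444 (0.280 to 0.689), from 31 UMIs in 19 CD4-Cre cells and 67 UMIs in 33 F/F cells. Cxcl10, a chemokine for T cells, had 9 UMIs in CD4-Cre and 30 in F/F, of which 21 lay in 1 cell. Rsad2, the antiviral enzyme viperin, had 5 and 20 UMIs, of which 17 lay in 1 F/F cell. With cells that passed by Plac8 alone left out, the log2 ratios of Cxcl10 and Rsad2 were 0.070 and 0.44, so the direction of both turned, and the median of the list was -0.46.

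Antigen presentation genes had a median of -0.44, 7 of 8 lower, and Cd86 was the member that stood higher. Without Plac8-only cells this median was -1.17. Transcription factors of monocytes had a median of -0.25, with 13 of 18 lower and none past 2-fold. Batf3, a partner of AP-1 factors, had a ratio of 0.530 (0.295 to 0.926), Cebpb, a driver of monocyte development, 0.705 (0.502 to 0.985), and Hif1a, the oxygen sensor's effector, 1.68 (1.08 to 2.67). Irf8, which commits progenitors to the monocyte line, had 1.33 (0.918 to 1.95). Immediate early and dissociation genes, which tissue digestion can induce, had a median of -0.27, with 14 of 18 lower. Ier3, described earlier, was among the members that stood higher. The ratio of their sum was 0.719 (0.647 to 0.800), 0.994 (0.872 to 1.13) and 0.928 (0.833 to 1.03) in the low, middle and high bins. Hspa1a, the inducible heat shock protein 70, had 7 UMIs in 4 CD4-Cre cells and 34 UMIs in 16 F/F cells, a ratio of 0.197 (0.0738 to 0.452). Handling of the 2 pools was not recorded in the sources used here, and its part in these values was not tested.

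Macrophage differentiation genes had a median of -0.28, with 10 of 15 lower, but Adgre1 and Apoe lay on the other side. The sum of the list was 10372 CPM in CD4-Cre and 8791 CPM in F/F, with ratios of 1.27 (1.15 to 1.40), 2.37 (2.10 to 2.69) and 0.843 (0.774 to 0.919) in the low, middle and high bins. Apoe made up most of this sum, so these ratios mainly reflect 1 gene. Adgre1, the macrophage antigen F4/80, was at 218 CPM in CD4-Cre monocytes and 112 CPM in F/F monocytes, a ratio of 1.95 (1.26 to 3.07), and Apoe had 1.23 (1.16 to 1.30). Axl, a receptor for dying cells, had 0.492 (0.267 to 0.878). Without the cells that passed by Plac8 alone, the log2 ratio of Apoe was 0.068. Of 12 nonclassical monocyte genes 6 were measured, with a median of -0.20 and 5 lower. Without the 5 highest cells per gene the median was 0.098, and the summed ratio was 0.435 (0.336 to 0.563), 1.51 (1.0 to 2.29) and 1.29 (0.925 to 1.78) in the low, middle and high bins, so the direction was not uniform. Adgre4, an adhesion receptor, had a ratio of 2.27 (1.43 to 3.71), while Nr4a1 had the ratio given earlier. One F/F cell gave 8201 CPM of this list, where the median cell gave 731 CPM in CD4-Cre and 693 CPM in F/F.

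**Figure D5:**
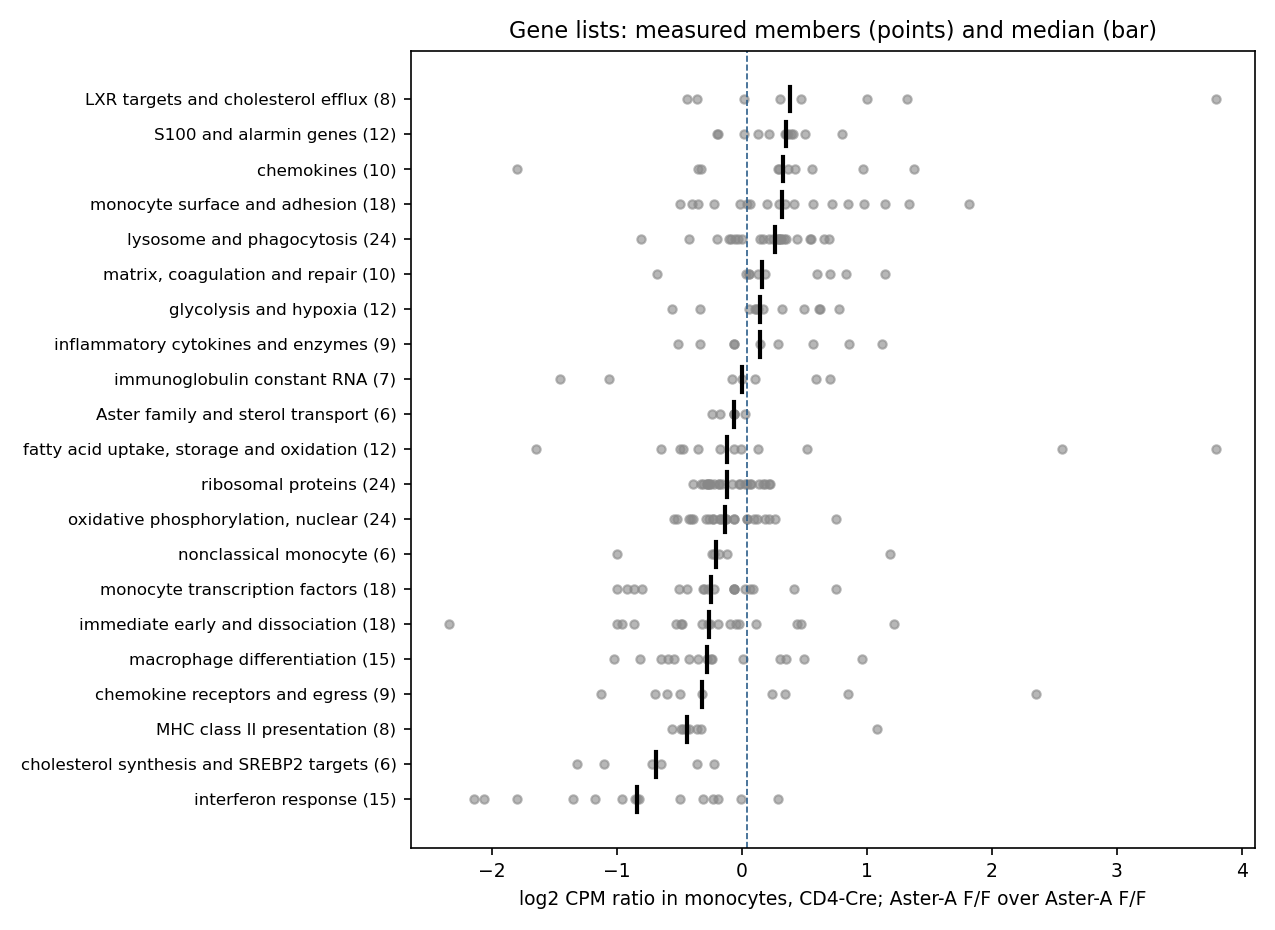
Points give the log2 CPM ratio of CD4-Cre over F/F for the measured members of each list (number in parentheses) in monocytes, bars the median, and the dashed line the median of all genes with 20 UMIs. Interferon response and cholesterol synthesis genes have most of their points left of 0, and S100, chemokine and monocyte surface genes lie mostly right of it.

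The list of cholesterol synthesis enzymes and other SREBP2 targets holds 24 genes, 6 of them measured, all 6 lower, with a median of -0.69. Insig1, which holds SREBP in the endoplasmic reticulum, was at 50.4 CPM in CD4-Cre monocytes and 109 CPM in F/F monocytes, a ratio of 0.464 (0.233 to 0.885). The list's sum was 133 UMIs in CD4-Cre and 197 UMIs in F/F, a ratio of 0.647 (0.515 to 0.810). In the low, middle and high bins this ratio was 0.691 (0.463 to 1.04), 0.464 (0.301 to 0.706) and 0.780 (0.519 to 1.16). Targets of LXR, the nuclear receptor that senses oxysterols, and cholesterol efflux genes had a median of 0.38, with 6 of 8 higher. Their summed ratio was 1.28 (1.16 to 1.42) in the low bin and 2.69 (2.35 to 3.09) in the middle bin, and turned to 0.874 (0.798 to 0.956) in the high bin. Apoe, which is also on the macrophage differentiation list, made up most of this sum. Its own ratios were 1.29 (1.16 to 1.43), 2.88 (2.48 to 3.35) and 0.853 (0.776 to 0.937) in the low, middle and high bins. Apoc2, the cofactor of lipoprotein lipase, was at 175 CPM in CD4-Cre monocytes and 70.1 CPM in F/F monocytes, a ratio of 2.49 (1.46 to 4.41), in 28 CD4-Cre and 14 F/F cells. Lpl, lipoprotein lipase itself, had 29 UMIs in 9 CD4-Cre cells and 2 UMIs in 1 F/F cell, and Abca1, the cholesterol exporter, had a ratio of 1.38 (0.731 to 2.68). The median of this list was 0.068 with fewer than 3 C1q UMIs. Without Plac8-only cells, and without cells with markers of other types, it was 0.26 and 0.095.

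Fatty acid genes had a median of -0.12, with 4 of 12 higher, and a mean of 0.26. Fabp5, a carrier of fatty acids, had 37 UMIs in 9 CD4-Cre cells and 6 UMIs in 5 F/F cells, and 1 CD4-Cre cell held 20 of them. Acsl5, which activates long-chain fatty acids, had 6 and 18 UMIs in CD4-Cre and F/F. The Aster family and sterol transport list had a median of -0.061, with 5 of 6 lower. Npc2, which binds cholesterol in lysosomes, was the abundant member, at 961 CPM in CD4-Cre monocytes and 1132 CPM in F/F monocytes, a ratio of 0.849 (0.721 to 0.998). Lysosome and phagocytosis genes had a median of 0.27, with 17 of 24 higher and none past 2-fold. Among them Lamp1 had a ratio of 1.46 (1.18 to 1.81), Ctss, the protease that trims the invariant chain, 1.26 (1.09 to 1.45), and Grn, progranulin, 0.570 (0.383 to 0.839).

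Medians of housekeeping lists lay close to 0. Ribosomal proteins stood at a median of -0.12 and nuclear genes of oxidative phosphorylation -0.14, with 15 of 24 and 16 of 24 members lower. Glycolysis and hypoxia genes had 0.15, with Pkm, pyruvate kinase, at 1.53 (1.14 to 2.07). Of 11 genes on the primary granule list only Igsf6 was measured, at a ratio of 1.76 (1.24 to 2.54). Mpo, Elane, Ctsg, Ms4a3, Camp and Ngp had no UMI in either library, so no reading of granule genes as a set was possible. Proliferation genes were sparse, with 3 of 18 measured and a median of -0.43, Hmgb2 among them at a ratio of 0.996 (0.665 to 1.49).

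RNA of other organs was also found in the monocytes, in unequal amounts. Pancreatic enzyme RNA gave 0 UMIs in CD4-Cre and 290 UMIs in 40 F/F monocytes, of which 208 lay in 5 cells. Gastric RNA gave 66 UMIs in 32 CD4-Cre and 10 UMIs in 9 F/F cells, mainly of Tff2, whose free RNA stood at 469 CPM in CD4-Cre and 80.2 CPM in F/F. Macrophages and cDC2 showed the same split, so it was not particular to monocytes. Pancreatic RNA stood at 6.53 CPM in CD4-Cre and 944 CPM in F/F macrophages, and at 3.87 and 545 CPM in cDC2. Gastric RNA stood at 218 and 21.6 CPM in these macrophages and at 155 and 27.8 CPM in cDC2. In monocytes, immunoglobulin constant genes were at a summed ratio of 0.996 (0.966 to 1.03). No gene with at least 100 UMIs in monocytes had free RNA levels more than 4-fold apart between the libraries, and 9 genes with 20 UMIs did.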

How the data were processed

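The deposited matrices hold raw UMI counts per gene and barcode, made by the authors with Cell Ranger 7.2.0, per the submitters' processing notes, against mm10 (GRCm38). Seurat 5.0.1 is also named there, but its cell calls were not used here. The count matrices are unfiltered. Cells were barcodes with at least 1000 UMIs, 500 genes and at most 10% mitochondrial UMIs. No doublet caller was run. Members, lists, markers and rules were chosen with earlier results of these data known.

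UMIs were summed over cells per library and scaled to CPM. Ratios of CD4-Cre over F/F carry exact 95% intervals of the binomial split of UMIs, shares exact Clopper-Pearson intervals. With 1 pool per genotype no test was made, and a count of 0 allows 3 counts. Intervals cover counting error only. Thinning drew 1500 UMIs per cell (seed 1) in monocytes and in 519 CD4-Cre and 521 F/F plasma cells taken at even steps. Macrophages shared the rule with 10 or more C1q UMIs, and cDC2, neutrophils and plasma cells were likewise chosen by transcripts. Named genes had at least 100 UMIs, 50 CPM in 1 library, 20 cells with a UMI and an interval whose nearer end lay 0.2 or more (log2) away from 0, up to 12 per direction, without immunoglobulin, T cell receptor or free RNA genes. Against macrophages 12 genes per direction were ranked by the smaller difference of the libraries. Up to 4 genes per list with the largest bound, the rule's own genes and the Aster genes were also named. Other genes in the text, among them Cd209a, Nos2, Tnf, Abca1 and Hmgb2, are list or marker members chosen after their values were seen, as were the MHC class II bins. A few genes that these rules named are not reported here. There were 25 lists of 446 genes. Positions are from GENCODE M21. The ratios were checked on simulated counts. Analyses used Python 3.11.15, numpy 2.4.6 and scipy 1.17.1.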

Additional observations from a re-analysis of the deposited data

Results flagged for a closer look

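Cd74, H2-Ab1 and H2-Eb1 stood on opposite sides of 1 in monocytes and macrophages of the same 2 libraries. In monocytes the ratio of CD4-Cre over F/F was 0.733 for Cd74 (0.699 to 0.767), 0.722 for H2-Ab1 (0.672 to 0.775) and 0.744 for H2-Eb1 (0.691 to 0.801). In macrophages it was 1.15 (1.13 to 1.17), 1.17 (1.13 to 1.20) and 1.16 (1.13 to 1.19). The difference between the cell sets was not tested, since each library is 1 pool. Within the high bin of MHC class II the monocyte ratios were 1.10 (1.04 to 1.16), 1.12 (1.03 to 1.22) and 1.20 (1.11 to 1.31). Within the middle bin they were 0.95 (0.860 to 1.05), 0.880 (0.754 to 1.03) and 0.804 (0.680 to 0.949). These genes are among those that set the bins, so the values within bins cannot decide the direction.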

How the results depend on the processing

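The monocyte share of kept cells had a ratio between 0.766 and 1.11 and that of monocytes and macrophages between 1.19 and 1.66 under the alternatives tried. The counts of genes at least 2-fold higher and lower in CD4-Cre, 41 and 14, were 8 and 0 among genes with 100 UMIs, 478 and 394 among genes with 10 UMIs, and 177 and 99 at 1.5-fold. They were 24 and 25 without members that passed by Plac8 alone, which left fewer cells. The lower count was 22 without cells with markers of other types and 22 with the mean of each cell's CPM. All 264 values of the 24 named genes under these alternatives kept their direction, and 237 stayed inside the interval as reported. A stricter mitochondrial limit and an upper limit on UMIs per cell removed no monocyte and left 48 in each library. The values of the named genes under those limits therefore repeat the main ones by construction. The 24 genes had also been chosen in the same cells for intervals away from a ratio of 1, so their kept direction is not an independent check. Among genes named from lists, log2 ratios turned for Selenop (-0.086), Lgmn (-0.077) and Cxcl10 (0.18) with fewer than 3 C1q UMIs, for S100a4 (-0.015) and Igha (0.058) with the mean over cells, and for Cxcl10 (0.070) and Rsad2 (0.44) without Plac8-only members. The interferon list's median lay between -0.86 and -0.42. That of cholesterol synthesis genes lay between -1.26 and -0.42. Medians turned sign under at least 1 alternative for chemokine receptors (-0.42 to 0.40), nonclassical genes (-0.62 to 0.098), fatty acid genes (-0.72 to 0.022), inflammatory genes (-0.0032 to 0.56), matrix genes (-0.0018 to 0.47) and immunoglobulin RNA (-0.18 to 0.087). The alternative without Plac8-only members was chosen after seeing the data. No paired analysis was possible because each genotype is 1 pool. With 48 cells a library, genes with few UMIs have wide intervals, and no alternative adds variation between mice.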
